A study of Mus musculus with 6 samples.

Results

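The BCL2 family decides at the mitochondrion whether a cell lives or dies, and the genes described here are 10 of its members: the anti-death genes Bcl2, Bcl2l1, Mcl1, Bcl2a1b and Bcl2a1d, the effectors Bax and Bak1, and the BH3-only genes Bcl2l11, Bbc3 and Pmaip1. They were picked out by symbol, and all 10 were found among the 47593 gene rows of the deposited table. All 10 had a mean normalised read count of at least 10 over the 6 libraries and so were tested, among 12991 genes in all. The libraries hold total RNA of mouse bone marrow cells, taken from the femur, selected for c-Kit, a receptor of early blood cells, and infected with MSCVneo, a retroviral vector with a neomycin resistance gene. The vector carried MLL-AF9, a leukaemia fusion of the histone methyltransferase MLL with AF9. In 3 libraries the fusion was unchanged (WT) and in 3 it carried the E531R substitution, which the series title ties to loss of binding between AF9 and the corepressor BCoR. All cells of both groups had passed selection on the drug G418 and serial passages in methylcellulose with cytokines, so every library came from cells that had survived culture with the fusion. Whether replicates come from separate infections, cultures or animals is not in the labels, so p-values measure only the spread between these libraries, and that spread may be technical.

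Death through the mitochondrion begins when Bax and Bak1 open its outer membrane and let cytochrome c out. Anti-death members hold both effectors and their activators in check, and BH3-only members, made or freed under stress or when growth signals are withdrawn, bind the anti-death proteins or activate the effectors. Myeloid cells depend on Mcl1 in particular, early progenitors also carry Bcl2, and Bcl2a1, a target of inflammatory signals, is found in mature neutrophils and macrophages.

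Normalised read counts below are the authors' gene read counts divided by 1 size factor per library. The libraries held 14161139 to 33459668 reads assigned to genes, and 1 read was worth 0.695 to 1.60 units. Log2 fold changes are E531R over WT on the log2(value + 1) scale, from limma fitted over all tested genes, with adjustment by Benjamini-Hochberg over those genes and a threshold of 0.05. Among the WT libraries replicate 3 differed most: its median absolute log2 difference from the mean of replicates 1 and 2 was 0.32, against 0.08 between those 2. Because many members differed in that library, values without it are given for each named member, family or pathway gene whose call it changed. The labels' progenitor identity was checked against 7 genes. Kit was at 3520 to 3702 in WT and 3332 to 3340 in E531R, and the pan-leukocyte gene Ptprc at 5357 ± 1985 and 6044 ± 116 (SD, n = 3 each). The single Ptprc values were 6270, 6721 and 3080 in WT and 6016, 6171 and 5944 in E531R. By limma 3 of the 7 were called higher in E531R: Cd34 2.01-fold (adjusted p = 0.00132), the granule enzyme Mpo 1.47-fold (0.00631) and Spi1 1.49-fold (0.0304). Myb, a factor of dividing progenitors, had 10528 ± 1208 in WT and 8303 ± 167 in E531R (adjusted p = 0.0532, limma, and 3.4e-08 without WT replicate 3). Without that library limma called 4 of the 7 higher and 3, Kit, Ptprc and Myb, lower, where 24.3% and 23.1% of all tested genes were.

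Of the 10 members, 2 rose in E531R cells and 0 fell by limma. Those that rose were the anti-death gene Bcl2a1d and the BH3-only gene Bcl2l11. Over all 12991 tested genes, 10.4% were called higher and 9.53% lower. At an unadjusted p under 0.05, 3 members were higher and 1, Bcl2, was lower, where 16.2% and 16.5% of all tested genes were. edgeR on the recovered reads also called 2 members higher and 0 lower (10.7% and 9.63% of all genes), whereas the authors' deposited table called 2 higher and 1, Bcl2, lower (7.91% and 7.5% of the genes with an adjusted p in it). Leaving out WT replicate 3, limma called 8 members higher and 1 lower, where 24.3% and 23.1% of all genes were called. Leaving out any other library, it called 1 to 2 members higher and 0 lower. Of the 12991 tested genes, 819 to 1128 were then called higher and 746 to 1053 lower. In 4 members (Mcl1, Bcl2a1b, Bcl2a1d and Bcl2l11) every E531R library lay above every WT library, and in Bcl2 every one lay below. Over all tested genes 21.2% were apart upwards and 22.8% downwards. The members' median log2 fold change was 0.22, beside 0.01 for all tested genes.

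**Figure D1:**
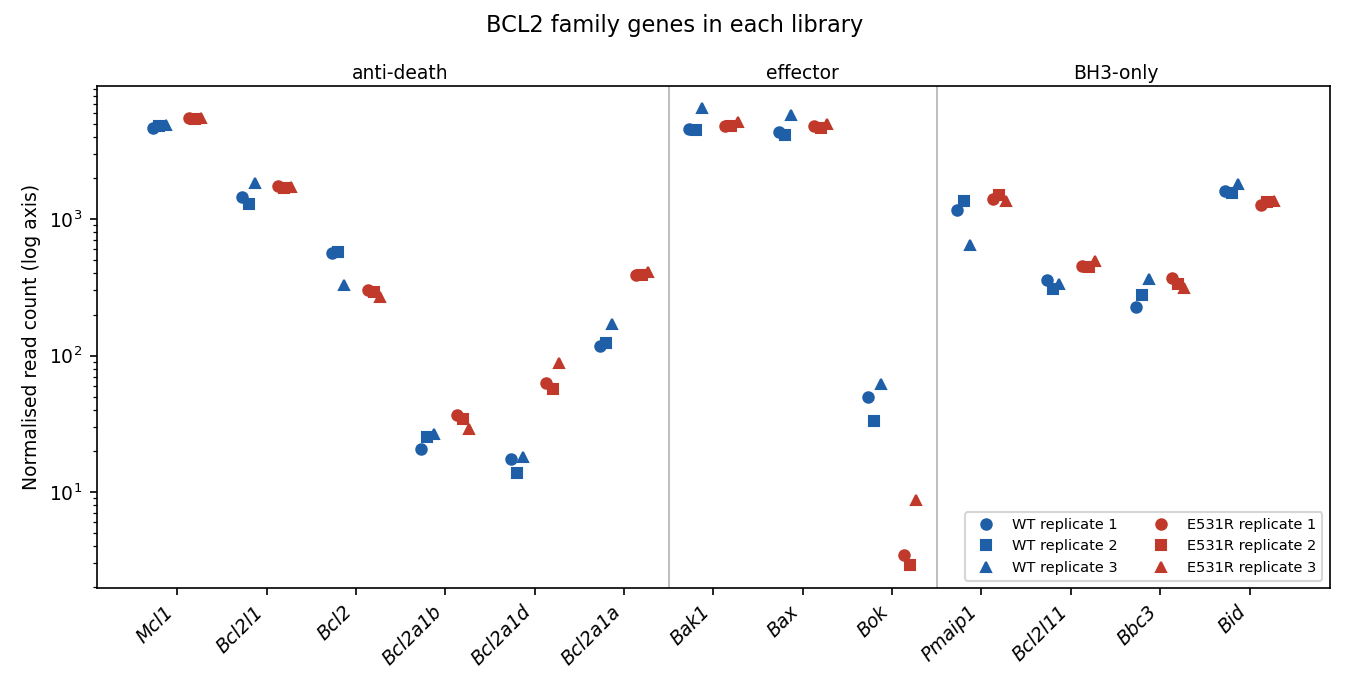
Normalised read count (vertical axis, log scale) of the 10 members and of Bcl2a1a, Bok and Bid (horizontal axis, grouped by role) in each library, with 1 symbol per library, WT in blue and E531R in red. Bcl2a1d and Bcl2l11 are higher in all 3 E531R libraries, Bcl2 is lower in all 3, and WT replicate 3 stands away from the other WT libraries for Pmaip1, Bcl2, Bax and Bak1.

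Bcl2a1, also called A1, is the anti-death gene with the largest fold difference among the members. The mouse has several near-identical copies of it on chromosome 9. Bcl2a1d lies at 88723285 to 88731914, Bcl2a1a at 88956900 to 88962419 and Bcl2a1b at 89199209 to 89207827 on GRCm38, by the GENCODE M21 annotation. Because reads of these copies can be told apart only where the letters differ, the first 120 coding bases of each are shown, taken from GENCODE transcripts, all exonic, with capitals at the 7 positions where the copies are not all alike. They lie at chr9:88957051-88957170 on the plus strand for Bcl2a1a, chr9:89199360-89199479 on the plus strand for Bcl2a1b and chr9:88731600-88731719 on the minus strand for Bcl2a1d.
Bcl2a1a: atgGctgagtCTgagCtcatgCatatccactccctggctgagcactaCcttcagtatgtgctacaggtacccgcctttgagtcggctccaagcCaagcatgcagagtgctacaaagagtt
Bcl2a1b: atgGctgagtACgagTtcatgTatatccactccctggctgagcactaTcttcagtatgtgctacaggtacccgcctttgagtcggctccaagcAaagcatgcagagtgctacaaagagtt
Bcl2a1d: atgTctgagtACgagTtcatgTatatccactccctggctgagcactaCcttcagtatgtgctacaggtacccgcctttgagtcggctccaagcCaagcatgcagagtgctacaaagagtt
Over the 516 coding bases, Bcl2a1b and Bcl2a1d differed at 6 (98.84% identity), Bcl2a1a and Bcl2a1d at 7 (98.64%) and Bcl2a1a and Bcl2a1b at 11 (97.87%). Of all windows of 50 bases along the transcripts, 31% were found in no other gene for Bcl2a1a, 20.8% for Bcl2a1b and 20.5% for Bcl2a1d. At 100 bases these shares were 56.5%, 43.2% and 45.3%. Bcl2a1b also shares 401 of its 817 exonic bases, 49.1%, with the overlapping gene model Gm29094 on the same strand. The sources used here do not tell how reads that match several copies were counted, so the split between copies is uncertain.

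Bcl2a1d had normalised read counts of 17.6, 13.8 and 18.1 in WT and 63.2, 56.4 and 88.6 in E531R. The lowest E531R library was above the highest WT library, although these values rest on only 11, 12 and 23 reads in WT and 91, 58 and 91 in E531R. The means were 16.5 ± 2.36 and 69.4 ± 16.9 (SD, n = 3 each), 4.21-fold higher in E531R, with a log2 fold change of 1.99 (SE 0.23; adjusted p = 0.00107 by limma). Bcl2a1b had 20.8, 25.3 and 26.8 in WT and 36.8, 34.1 and 29.2 in E531R. Its groups did not overlap but lay close, and the log2 fold change of 0.45 (SE 0.19) did not pass in limma (adjusted p = 0.164), nor without WT replicate 3 (0.0864). The ratio of Bcl2a1d to Bcl2a1b reads was 0.846, 0.546 and 0.677 in WT and 1.72, 1.66 and 3.03 in E531R. All 3 E531R ratios were above all 3 WT ratios, with an exact two-sided permutation p of 0.1, the smallest that 3 against 3 libraries can give.

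Bcl2a1a, not a member but the copy with the most reads, had 118, 124 and 169 in WT and 388, 387 and 410 in E531R. It rose 2.88-fold, with a log2 fold change of 1.54 (SE 0.15; adjusted p = 0.0005 by limma). All Bcl2a1 copies summed, Bcl2a1c included, a quantity free of the split of counted reads among them, had 156, 163 and 215 in WT and 489, 481 and 530 in E531R. Every E531R sum was more than 2-fold above every WT sum. Their log2 fold change was 1.497 (SE 0.14; adjusted p = 0.000389 by limma), and Bcl2a1a made up 75.5% to 78.8% of the sum in WT and 77.4% to 80.6% in E531R. Bcl2a1c, whose coding sequence was 83.07% identical to that of Bcl2a1a over the 384 bases compared, had at most 3 reads in any library and was not tested.

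Markers of mature myeloid cells moved with Bcl2a1. All 9 neutrophil markers were called higher in E531R by limma, with a summed normalised read count of 7311 to 9827 in WT and 71566 to 78898 in E531R. S100a8, which neutrophils make in bulk, went from 2081 ± 354 to 25931 ± 1664 (SD, n = 3 each). All 7 tested of 9 macrophage and monocyte markers were also called higher, with sums of 2501 to 3199 in WT and 12774 to 14443 in E531R. In bulk RNA, more cells of a type and more RNA per cell cannot be told apart, and the part of these cells in the Bcl2a1 values was not tested. Of the lymphocyte markers, Ms4a1, Cd3e, Cd8a and Ncr1 were at 0 in every library, and almost all reads of the list were of Nkg7, a granule gene, at 619 to 776 in WT and 260 to 286 in E531R. Hba-a1 of red cells, Fcer1a of mast cells and Cxcl12 of stroma were at 0 throughout, but other genes of these lists were not. Tfrc of the red cell list had 7335, 7800 and 3988 in WT and 7750, 7992 and 8178 in E531R. Pecam1 of endothelium averaged 5850 in WT and 1460 in E531R. The WT and E531R means of the mast cell and basophil genes were 130 and 68.5 for Mcpt8 and 127 and 142 for Hdc. They were 95.0 and 94.1 for Ms4a2 and 83.1 and 32.8 for Gata2. Ms4a2 had 121, 123 and 40.9 in the single WT libraries, lowest in replicate 3, and 82.7, 101 and 98.3 in E531R. Of the tested genes of these lists, limma called Nkg7 of lymphocytes, 2 of 4 mast cell genes and Pecam1 of endothelium lower, and neither of 2 red cell genes.

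The promoter windows of the 3 copies are shown because each copy was higher in all 3 E531R libraries and all carry the same short motif. In the RefSeq table for GRCm38.p6, a window runs from 250 bases before to 50 after an annotated start. A motif that PU.1, the myeloid factor encoded by Spi1, is known to bind was searched as GAGGAAGT on both strands. It was found once in the window of each copy and is in capitals below, at chr9:88956706-88956863 on the plus strand for Bcl2a1a, chr9:89199023-89199172 on the plus strand for Bcl2a1b and chr9:88731907-88732064 on the minus strand for Bcl2a1d.
Bcl2a1a: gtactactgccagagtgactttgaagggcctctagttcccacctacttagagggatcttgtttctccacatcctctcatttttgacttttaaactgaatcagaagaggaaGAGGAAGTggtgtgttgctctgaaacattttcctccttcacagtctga
Bcl2a1b: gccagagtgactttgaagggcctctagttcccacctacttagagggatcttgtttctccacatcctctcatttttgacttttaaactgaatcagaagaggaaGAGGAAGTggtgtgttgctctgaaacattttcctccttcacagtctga
Bcl2a1d: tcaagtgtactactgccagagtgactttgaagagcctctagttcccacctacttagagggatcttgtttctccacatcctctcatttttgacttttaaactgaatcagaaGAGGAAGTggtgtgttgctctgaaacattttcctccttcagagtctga
The first 2 stretches lie outside annotated exons, and that of Bcl2a1d holds 8 exonic bases of the gene itself and 67 of other gene models. The motif starts 104 bases before the annotated start in Bcl2a1a and Bcl2a1d and 148 before it in Bcl2a1b. Of all 32851 windows in the table, 3.2% held it. The 3 stretches are nearly alike in their letters, so motif matches in them are not independent of one another. The AP-1 motif, searched as TGANTCA with N for any base, also matched once in each of the 3 windows, each time as TGAATCA. Of all windows 7.81% held a match to TGANTCA. Among the other family genes with a window, the PU.1 motif was also found for Bcl2a1c, Bak1, Bad and Bcl2l14. Of these Bcl2l14 was called lower by limma (log2 fold change -0.37). Bak1 (-0.06) and Bad (-0.05) were not called, and Bcl2a1c was not tested. The E-box CACGTG was found for Bax and Bbc3 (7.15% of all windows). Neither the NF-kB motif GGANTTTCC (1.25%) nor the CRE motif TGACGTCA (1.79%) was in any family window, and no matches of different motifs overlapped. Spi1 itself went from 5606 ± 1219 to 8345 ± 354 (SD, n = 3 in each group), with a log2 fold change of 0.59 (adjusted p = 0.0304, limma). That call was lost without WT replicate 1 or 2 (0.0982 and 0.0812) without E531R replicate 1, 2 or 3 (0.111, 0.0894 and 0.119) and with upper-quartile rescaling (0.0519). A match is a description of letters, and binding at these windows was not measured.

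Bcl2, the founding member and a guard of lymphoid and early progenitor cells, had normalised read counts of 567, 579 and 328 in WT and 304, 290 and 271 in E531R. All E531R libraries were below all WT libraries, but WT replicate 3 was far nearer to E531R than to the other WT libraries. The means were 491 ± 142 and 288 ± 16.9 (SD, n = 3 each), 1.70-fold lower in E531R, and the log2 fold change of -0.72 (SE 0.22) narrowly missed the threshold in limma (adjusted p = 0.0651). Without WT replicate 3 it was -0.99 (adjusted p = 1.94e-08, limma). Leaving out WT replicate 1 or 2 instead gave limma adjusted p-values of 0.167 and 0.147. Leaving out E531R replicate 1, 2 or 3 gave 0.157, 0.18 and 0.196. The authors' deposited table gives -0.70 after turning its sign, with an adjusted p of 0.00615. The gene lies on chromosome 1 at 106538178 to 106714274, and 6.09% of its exonic bases lie opposite D630008O14Rik.

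Mcl1, a short-lived protein on which myeloid cells lean, had 4623, 4781 and 4906 in WT and 5511, 5399 and 5515 in E531R. It lies on chromosome 3 at 95658788 to 95663176. The groups were apart, at 4770 ± 142 and 5475 ± 65.6 (SD, n = 3 each), but the difference was small. Its log2 fold change was 0.20 (SE 0.06), just short of the threshold in limma (adjusted p = 0.0641), and 0.22 without WT replicate 3 (adjusted p = 9.23e-05). Leaving out any other library instead gave limma adjusted p-values of 0.127 to 0.241. Bcl2l1, which encodes BCL-XL, the guard of red cells and platelets among others, had 1457, 1302 and 1830 in WT and 1762, 1684 and 1729 in E531R. WT replicate 3 was the highest of all 6 libraries and made the groups overlap in this gene of chromosome 2 (152780668 to 152831728). The log2 fold change was 0.19 (SE 0.13; adjusted p = 0.354 by limma), and 0.32 without that library (adjusted p = 5.87e-05).

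Neither effector passed the test. Bax had 4388, 4172 and 5817 in WT and 4826, 4640 and 4998 in E531R, with a log2 fold change of 0.02 (SE 0.13; adjusted p = 0.914 by limma). Bak1 had 4617, 4537 and 6483 in WT and 4781, 4827 and 5146 in E531R, with -0.06 (SE 0.14; adjusted p = 0.778 by limma). In both genes the WT libraries spanned the whole E531R range because WT replicate 3 was far above every other library. Without it Bax was called higher (log2 fold change 0.17, limma adjusted p = 0.00246), and Bak1 turned direction and was called higher too (0.10, adjusted p = 0.0438). Bax lies on chromosome 7 at 45461697 to 45466898, and 12.2% of its exonic bases overlap Gm45808 on the same strand. Bak1 lies on chromosome 17 at 27019810 to 27029009, and 25.5% of its exonic bases overlap Ggnbp1 on the other strand.

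Bcl2l11 encodes BIM, the BH3-only protein that rises when blood cells lose growth factor signals and that binds every anti-death member. It had 361, 310 and 337 in WT and 454, 447 and 490 in E531R. All E531R libraries were above all WT libraries, and WT replicate 3 lay between the other WT libraries. The means were 336 ± 25.4 and 463 ± 23.0 (SD, n = 3 each), 1.38-fold higher in E531R. It rose by a log2 fold change of 0.46 (SE 0.09; adjusted p = 0.0128 by limma), and the authors' deposited table gives 0.45 with an adjusted p of 0.0107. The call was lost on leaving out E531R replicate 1, 2 or 3, where the limma adjusted p was 0.0606, 0.0524 and 0.0699.

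Bbc3 encodes PUMA and Pmaip1 encodes NOXA, both targets of p53. NOXA binds Mcl1 above all, and PUMA binds all anti-death members. Bbc3 had 228, 279 and 367 in WT and 373, 333 and 314 in E531R, with WT replicate 3 inside the E531R range. Its log2 fold change was 0.25 (SE 0.18; adjusted p = 0.389 by limma), and 0.43 without that library (adjusted p = 0.0024). Pmaip1 had 1162, 1352 and 644 in WT and 1404, 1510 and 1349 in E531R. Here WT replicate 3 was the lowest by far, and WT replicate 2 reached the E531R range. The log2 fold change was 0.50 (SE 0.26; adjusted p = 0.237 by limma), and only 0.18 without WT replicate 3, which then passed (adjusted p = 0.0268).

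Of the 10 members, 9 had windows in the promoter table, 14 windows in all, and 2 of them held the FOXO motif GTAAACA on either strand. FOXO factors are known activators of Bcl2l11 and Bbc3 when growth factor signals fall. Bcl2l11 lies on chromosome 2 at 128126038 to 128162547 and Bbc3 on chromosome 7 at 16308393 to 16318205. The stretches are shown with the motif in capitals, at chr2:128125788-128125857 for Bcl2l11 and chr7:16310054-16310140 for Bbc3, both on the plus strand.
Bcl2l11: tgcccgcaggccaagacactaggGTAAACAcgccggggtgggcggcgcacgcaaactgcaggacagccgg
Bbc3: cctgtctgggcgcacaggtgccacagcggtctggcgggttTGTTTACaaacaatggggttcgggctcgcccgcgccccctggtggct
The motif starts 227 bases before the annotated start of Bcl2l11 and, as its reverse complement, 167 before an alternative start of Bbc3, in an intron of that gene. Of all windows, 3.65% held it. Of the FOXO genes, Foxo4 was called lower, at 688 ± 50.4 in WT and 547 ± 37.0 in E531R (SD, n = 3 in each group), -0.33 on the log2 scale with an adjusted p of 0.0466 by limma. Foxo3 had a log2 fold change of -0.09 (adjusted p = 0.427, limma). The Foxo4 call was lost without WT replicate 1 or 2 (limma adjusted p = 0.075 and 0.0875) and without E531R replicate 1, 2 or 3 (0.102, 0.195 and 0.14). It was also lost with DESeq2 (0.0534), TMM rescaling (0.0605) and no filter (0.0643).

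**Figure D2:**
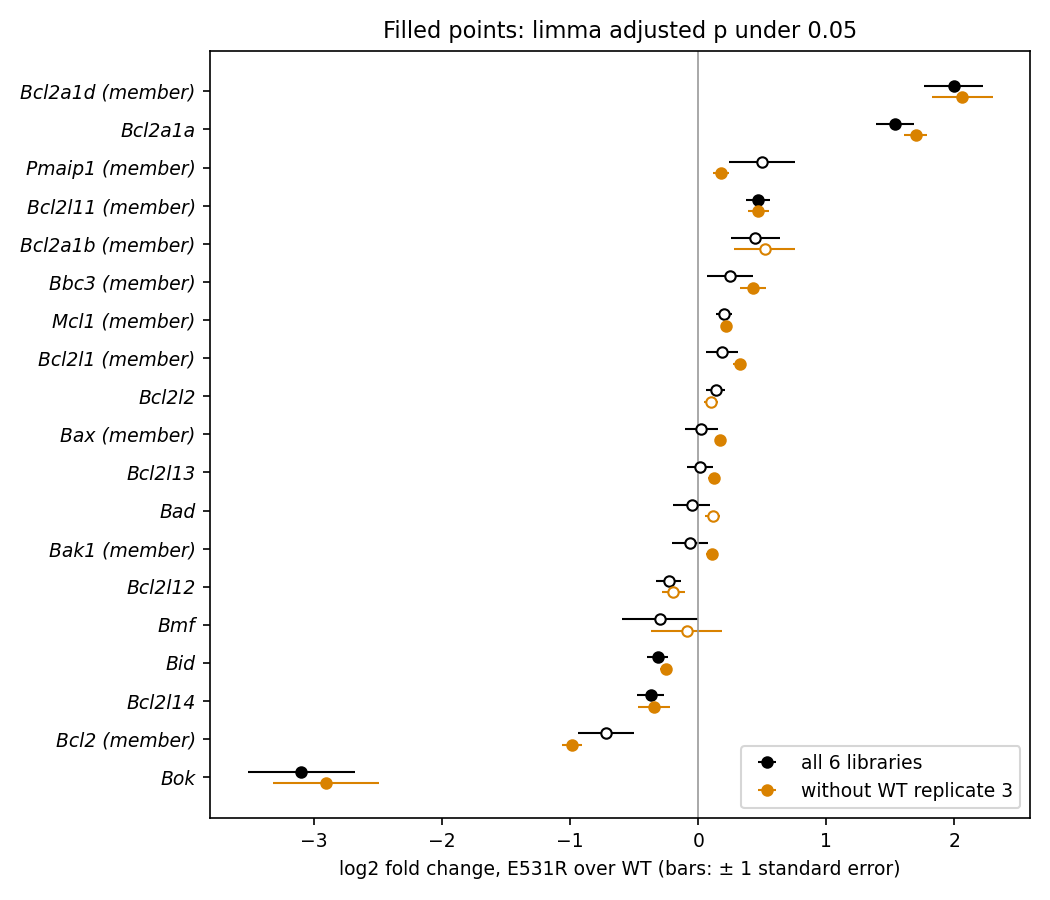
Log2 fold change of E531R over WT with its standard error (horizontal axis) for the 10 members and the other tested BCL2 family genes (vertical axis), with all 6 libraries (black) and without WT replicate 3 (orange), filled where the limma adjusted p was under 0.05. Bcl2a1d and Bcl2a1a lie at 1.99 and 1.54 and Bok at -3.10, while the other genes lie between -0.72 and 0.50 with all libraries.

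Levels can be compared between genes only per length, here per kb of exon. Those of the Bcl2a1 copies also depend on how reads that match several copies were counted, which is not known. In WT cells Bax (3041 ± 567 per kb) and Bak1 (2166 ± 458) were highest and their ranges overlapped, followed by Mcl1 (1396 ± 41.5), which did not overlap Bak1 (SD, n = 3 each). Pmaip1 (385 ± 134) and Bcl2l1 (334 ± 59.1) came next among the members and overlapped, followed by Bbc3 (137 ± 33.0). Bcl2 (53.6 ± 15.5), Bcl2l11 (41.8 ± 3.16), Bcl2a1b (29.7 ± 3.83) and Bcl2a1d (19.1 ± 2.73) were lowest, and of these only Bcl2 and Bcl2l11 overlapped. In E531R cells the order was Bax (3059 ± 114), Bak1 (2043 ± 82.5), Mcl1 (1602 ± 19.2), Pmaip1 (520, range 494 to 553), Bcl2l1 (376 ± 8.54) and Bbc3 (160 ± 14.2). Below these stood Bcl2a1d (80.4 ± 19.6), Bcl2l11 (57.7 ± 2.87), Bcl2a1b (40.8 ± 4.73) and Bcl2 (31.5 ± 1.85). Among these E531R levels no neighbours in the order overlapped. Among the 5 anti-death members Bcl2 stood above Bcl2a1b and Bcl2a1d in WT and below them in E531R. This switch does not extend to Bcl2a1a, the copy with the most reads, which is no member. Already among WT libraries Bcl2a1a spanned 144 to 207 per kb, against 35.8 to 63.2 for Bcl2. Among E531R libraries it spanned 473 to 500, against 29.6 to 33.2 for Bcl2.

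Within each library the per-kb levels of the 5 anti-death members were set against their sum. Mcl1 held most of it, 76.1%, 78.0% and 74.6% in WT and 75.1%, 75.7% and 74.8% in E531R, with overlapping groups. The copy Bcl2a1a, no member, is left out of this sum, and the shares of the other copies depend on how shared reads were counted. Bcl2 held 3.48%, 3.53% and 1.86% in WT and 1.55%, 1.52% and 1.37% in E531R, and Bcl2a1d held 1.14%, 0.891% and 1.09% against 3.41%, 3.14% and 4.76%. For both genes the groups did not overlap, in opposite directions. The exact two-sided permutation p was 0.1 for each, the smallest the design allows, and 0.25 after adjustment over the 5 shares. Bcl2l1 held 15.8% to 20.7% in WT and 17.5% to 17.9% in E531R, and Bcl2a1b 1.43% to 1.73% and 1.66% to 2.10%, both with overlap. With Bcl2a1a added, an alternative chosen after seeing the data, that copy held 7.50%, 7.79% and 9.70% in WT and 18.1%, 18.5% and 18.8% in E531R. Mcl1 then held 70.4%, 72.0% and 67.4% against 61.5%, 61.7% and 60.7%, and its groups no longer overlapped. Both differences had an exact two-sided permutation p of 0.1, the smallest possible.

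**Figure D3:**
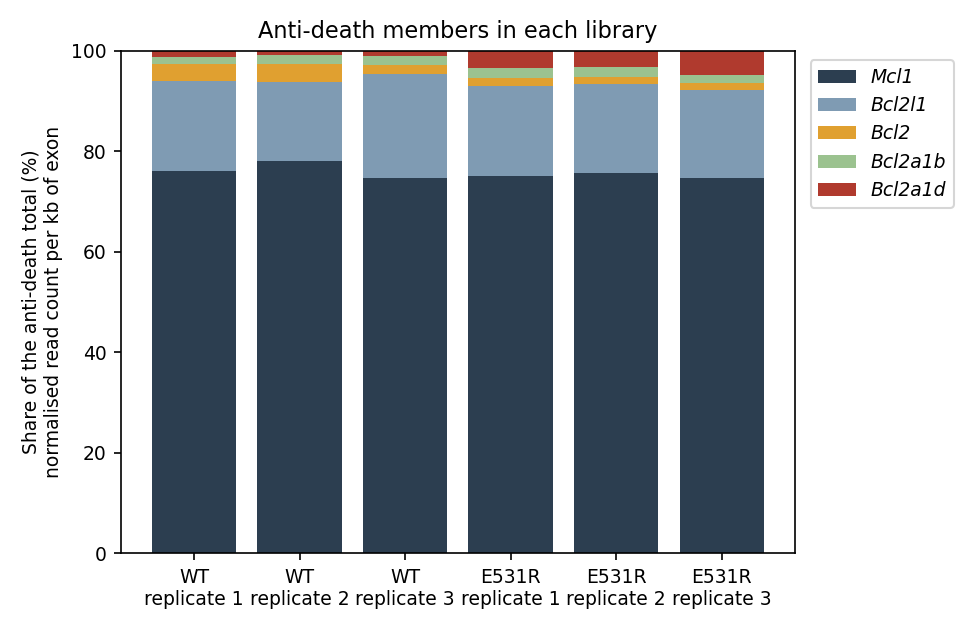
Share of the summed per-kb normalised read count of the 5 anti-death members (vertical axis, %) held by each member in each library (stacked bars). Mcl1 fills 74.6% to 78.0% of every bar, and Bcl2a1d takes 0.891% to 1.14% in WT and 3.14% to 4.76% in E531R.

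The summed anti-death level per kb was 1778, 1793 and 1924 in WT and 2148, 2086 and 2158 in E531R, and that of the BH3-only members 578, 665 and 450 against 746, 765 and 703. Both sums were higher in all 3 E531R libraries than in any WT library (exact two-sided permutation p = 0.1 each, the smallest possible). They cover the members only and leave out Bid, Bad and Bcl2l2, among others. The BH3-only gene Bid went the other way: its per-kb range was 439 to 508 (WT) against 357 to 386 (E531R). The groups overlapped for the BH3-only gene Bad, and the anti-death gene Bcl2l2 was higher in every E531R library. Sums and ratios with these genes added were not tested. The ratio of the anti-death to the BH3-only sum was 3.08, 2.70 and 4.27 in WT and 2.88, 2.73 and 3.07 in E531R. The groups overlapped, and the log2 difference of -0.19 did not hold up against the spread (exact two-sided permutation p = 0.6). Without WT replicate 3, the highest by far, it was 0.00413, of the other sign. With Bcl2a1a added to the anti-death sum the difference was -0.0166 (exact two-sided permutation p = 1).

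Of the 14 other BCL2 family genes looked for, 9 were tested, with a median log2 fold change of -0.23. Of these 1 was called higher (Bcl2a1a, above) and 3 lower, where 10.4% and 9.53% of all tested genes were. Bok, an effector relative of Bax and Bak1, had 49.5, 33.3 and 61.4 in WT and 3.48, 2.92 and 8.76 in E531R. The groups were far apart, 9.51-fold, but the E531R values rest on 5, 3 and 9 reads. Bok fell by 3.10 on the log2 scale (SE 0.42; adjusted p = 0.00226 by limma). Bid, the BH3-only protein that links death receptors to the mitochondrion, had 1609, 1557 and 1803 in WT and 1268, 1343 and 1370 in E531R. It fell by 0.32 on the log2 scale (SE 0.08; adjusted p = 0.0348 by limma), a call lost without WT replicate 1 (0.0822) or E531R replicate 1, 2 or 3 (0.163, 0.127 and 0.0992). Of its exonic bases 17.7% lie opposite Bcl2l13.

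Bcl2l14, a divergent family member, went from 134 ± 5.84 to 103 ± 2.19 (SD, n = 3 in each group), -0.37 on the log2 scale with an adjusted p of 0.047 by limma. That call was lost in 10 of 18 alternatives, among them leaving out WT replicate 1 or 2 (0.088 and 0.104) and E531R replicate 1, 2 or 3 (0.185, 0.163 and 0.131). The anti-death gene Bcl2l2 had a log2 fold change of 0.14 (adjusted p = 0.261, limma). Among BH3-only genes Bad, which growth factor signals switch off, had -0.05 (adjusted p = 0.83) and Bmf had -0.30 (adjusted p = 0.524) in the same limma fit. Bcl2l12 had -0.23 (adjusted p = 0.162, limma) and Bcl2l13 had 0.01 (adjusted p = 0.938), or 0.12 and an adjusted p of 0.0279 without WT replicate 3. Bcl2l10 and Hrk had 0 reads in every library, and Bik and Bcl2l15 had at most 5 and 8 reads in any library and were not tested.

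Downstream of the effectors, 18 genes of the apoptosome and caspases had a median log2 fold change of 0.01. By limma 0 were called higher and 2 lower, where 10.4% and 9.53% of all tested genes were. Those called lower were Cycs and Endog, which encode the mitochondrial proteins cytochrome c and endonuclease G. Cycs went from 5770 ± 355 to 4360 ± 199 (SD, n = 3 in each group), -0.40 on the log2 scale with an adjusted p of 0.0096 by limma, and the call was lost without E531R replicate 1 or 2 (0.064 and 0.0632) or with the GC and length trend removed (0.0539). Endog went from 346 ± 71.2 to 212 ± 3.70 (SD, n = 3 in each group), -0.69 on the log2 scale with an adjusted p of 0.0176 by limma, lost without E531R replicate 1, 2 or 3 (0.0778, 0.0723 and 0.0694). Birc3, an inhibitor of cell death that acts in inflammatory signalling, had 0.28 (adjusted p = 0.0504, limma), and Diablo, which blocks such inhibitors, had -0.37 (adjusted p = 0.0887). On leaving out WT replicate 3 both passed, at 0.24 and -0.25 (adjusted p = 0.00427 and 0.0105, limma). Then 2 genes of this list were called higher and 4 lower, where 24.3% and 23.1% of all tested genes were.

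Of the death receptor pathway 10 of 12 genes were tested, with a median log2 fold change of 0.09. Of these 1 was called higher and 1 lower, where 10.4% and 9.53% of all tested genes were. Fas, the receptor of Fas ligand, went from 122 ± 18.0 to 198 ± 17.8 (SD, n = 3 in each group), 0.70 on the log2 scale with an adjusted p of 0.0145 by limma. Its call was lost without E531R replicate 2 or 3 (0.0655 and 0.0734) or with the GC and length trend removed (0.06). Tnfrsf10b, the mouse TRAIL receptor, went from 269 ± 16.8 to 184 ± 6.87 (SD, n = 3 in each group), -0.54 on the log2 scale with an adjusted p of 0.00712 by limma. The 2 receptors were thus called in opposite directions. Casp8, the protease they recruit, had 0.24 (adjusted p = 0.0549, limma), and Ripk1 had 0.16 (adjusted p = 0.137). With WT replicate 3 left out both passed, at 0.19 and 0.17 (adjusted p = 0.000604 and 0.00812, limma). In the list 4 were then called higher and 1 lower, where 24.3% and 23.1% of all tested genes were.

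Among 16 upstream regulators of the family 15 were tested, with a median log2 fold change of 0.12. Of these 2 were called higher and 1, Foxo4, lower, where 10.4% and 9.53% of all tested genes were. Rel, the NF-kB subunit known to switch on Bcl2a1, went from 276 ± 96.6 to 620 ± 36.5 (SD, n = 3 in each group), 1.24 on the log2 scale with an adjusted p of 0.0184 by limma. Its call was lost without E531R replicate 1, 2 or 3 (0.0641, 0.0781 and 0.0741). Mdm2, the ubiquitin ligase of p53, went from 1645 ± 313 to 2332 ± 40.9 (SD, n = 3 in each group), 0.52 on the log2 scale with an adjusted p of 0.044 by limma, lost without WT replicate 1 (0.0557) or E531R replicate 1, 2 or 3 (0.133, 0.151 and 0.141). Without WT replicate 3 the log2 fold changes were 0.90 for Rel and 0.35 for Mdm2. Then 8 genes of this list were called higher and 3 lower, where 24.3% and 23.1% of all tested genes were. Trp53, which encodes p53, had -0.25 (adjusted p = 0.11, limma), or -0.15 and an adjusted p of 0.00186 without WT replicate 3. Stat5a, which carries cytokine signals to Bcl2l1, had -0.29 (adjusted p = 0.0632), or -0.21 and 0.000998 without that library.

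Of 12 partners of the family at the mitochondrion or in protein stability, 0 were called in either direction by limma. Of all tested genes 10.4% were called higher and 9.53% lower. By limma 2 partners had an unadjusted p under 0.05, both lower, where 16.5% of all tested genes were lower at that threshold. edgeR called 0 higher and 1 lower, where 10.7% and 9.63% of all tested genes were. Dynll1, a dynein light chain that binds BIM, had a log2 fold change of -0.29 (adjusted p = 0.0504, limma) and Bag3, a co-chaperone, had -0.30 (adjusted p = 0.0532). The list's median log2 fold change was -0.08. When WT replicate 3 was left out, Dynll1 and Bag3 passed at -0.22 and -0.23 (adjusted p = 0.000166 and 0.00239, limma). Then 3 genes of the list were called higher and 3 lower, where 24.3% and 23.1% of all tested genes were.

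The position of WT replicate 3 differed from member to member. Against the mean of the other WT libraries it was lower by a log2 value of -0.96 for Pmaip1 and -0.80 for Bcl2. It was higher by 0.53 for Bbc3, 0.50 for Bak1, 0.44 for Bax, 0.41 for Bcl2l1, 0.21 for Bcl2a1b and 0.20 for Bcl2a1d, and near 0 for Mcl1 (0.06) and Bcl2l11 (0.01). Base composition moved with this: Bcl2 and Pmaip1 have transcripts of 45.7% and 41.6% GC, and Bbc3, Bax and Bak1 of 67.1%, 59.0% and 57.3%. Over 12569 tested genes with a GC value, which share the library, Spearman's rho of that difference with GC was 0.64 as a description. It was 0.00996 for the same difference of E531R replicate 3. The median was -0.52 over genes of at most 45.4% GC and 0.33 over those of at least 54.6%. The copies Bcl2a1a, Bcl2a1b and Bcl2a1d have 44.2%, 44.1% and 44.6% GC. Bcl2a1a was higher in WT replicate 3 by 0.48, on 215 reads there. The 0.21 of Bcl2a1b and 0.20 of Bcl2a1d rest on only 34 and 23 reads in that library. With a trend on GC and length taken out of each library, an alternative chosen after seeing the data, Bcl2 had a log2 fold change of -0.86 (adjusted p = 0.00234, limma). What made this library differ was not tested.

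**Figure D4:**
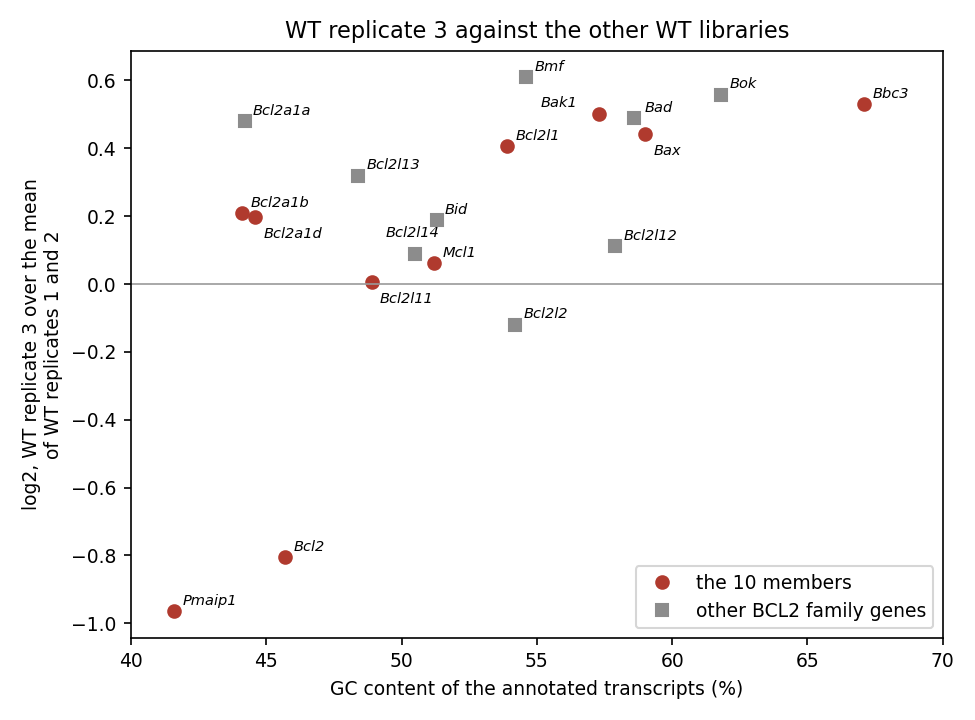
Log2 difference of WT replicate 3 from the mean of WT replicates 1 and 2 (vertical axis) against the GC content of the annotated transcripts (horizontal axis, %), for the 10 members and the other tested BCL2 family genes. Pmaip1 and Bcl2, at 41.6% and 45.7% GC, lie lowest at -0.96 and -0.80, and Bbc3, at 67.1%, lies at 0.53.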

How the data were processed

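RNA-seq gene values of 6 libraries, 3 WT and 3 E531R, were grouped by the titles in the labels. The deposited signal values are gene read counts that the authors divided by 1 size factor per library: 100% were whole multiples of the value of 1 read within 0.001 reads. Also deposited are the authors' log2 fold change, WT over E531R (its sign is turned here), a standard error and Wald statistic (both entered as score), and p-values, per the file headers. Per the submitters' processing notes, reads went through cutadapt, FastQC, SAMtools, HISAT2, DESeq2 and featureCounts on GRCm38. Their versions, the annotation and the use of strand are not stated in the sources used here. A shift shared by all genes would be lost to the size factors.

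Genes with a mean of 10 or more, 12991 in all, were tested in limma (version 3.58.1, R 4.3.3) on log2(value + 1), with a trend on intensity, two-sided and without covariates. Fold changes on that scale understate changes of low genes, while folds are of the means. It was tested on simulated data. Shares and ratios used exact permutation tests (scipy 1.17.1). Alternatives were edgeR 4.0.16, DESeq2 1.42.0, voom, other pseudocounts, filters and scalings, array weights, a replicate block and leaving out each library. Removal of a GC and length trend, summing the Bcl2a1 copies and adding Bcl2a1a to the anti-death sum were chosen after seeing the data. Positions, exon lengths and GC come from GENCODE M21, and promoter windows from RefSeq (GRCm38.p6). Named genes are all members, all measured other family genes and up to 4 genes with the smallest adjusted p of each other list. Foxo3 and Trp53, the overlap partners and Spi1, S100a8, Nkg7, Pecam1, Kit, Cd34, Mpo, Myb and Ptprc are named outside that rule or as markers. Tfrc, Mcpt8, Hdc, Ms4a2 and Gata2 are also named as markers. Members and lists were chosen with earlier results of these data known.

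Same-numbered libraries were not taken as pairs.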

Additional observations from a re-analysis of the deposited data

How the results depend on the processing

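Bcl2a1d, Bcl2a1a and Bok kept their call in every alternative that tested them: the log2 fold change of Bcl2a1d ran from 1.57 to 2.13, of Bcl2a1a from 1.35 to 1.70 and of Bok from -3.51 to -1.94. Over 39 named genes and 18 alternatives, 577 values kept direction and side of the threshold, 49 lost a call, 57 gained one and 15 changed sign. Members called higher numbered 5 with the GC and length trend removed (chosen after seeing the data), 8 with array weights, 1 at a mean of at least 50, where Bcl2a1d was not tested, and 1 to 8 on leaving out a library. Members called lower numbered 1, Bcl2, with DESeq2, the GC and length trend removed, array weights or upper-quartile rescaling, and 0 to 1 on leaving out a library. All genes called higher numbered 2010 with the GC and length trend removed, 3432 with array weights and 819 to 3159 on leaving out a library. All genes called lower numbered 2050 with the GC and length trend removed, 3266 with array weights and 746 to 2999 on leaving out a library. The array weights stopped before convergence. Genes of the pathway lists, 4 higher and 7 lower in all, numbered 1 to 19 and 2 to 14 on leaving out a library, the highest without WT replicate 3. In every limma fit, with all libraries or with 1 left out, the spread was pooled over both groups.

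Log2 fold changes that turned sign were all small and uncalled with all libraries. For Bax they were -0.0157 with upper-quartile rescaling and -0.0682 to 0.171 on leaving out a library (-0.0318 without WT replicate 1, -0.0682 without WT replicate 2 and -0.0025 without E531R replicate 3). Bak1 had 0.0724 with array weights and -0.155 to 0.103 on leaving out a library, above 0 without WT replicate 3. Bad had 0.0221 with the GC and length trend removed, 0.120 with array weights and -0.144 to 0.113 on leaving out a library, above 0 without WT replicate 3, and Bmf had 0.0514 with array weights. Bcl2l13 had -0.0204 with that trend removed, -0.0256 with upper-quartile rescaling and, on leaving out a library, -0.0561 to 0.12, below 0 without WT replicate 1 or 2 and without E531R replicate 3. The share of Bcl2l1 was 0.395 points higher in E531R with no division by length, 0.0671 without the Bcl2a1 genes and -1.66 to 0.795 on leaving out a library. That of Mcl1 was 2.29 points higher with no division by length and 1.40 without the Bcl2a1 genes. The log2 ratio of anti-death to BH3-only sums differed by -0.33 to 0.00413 on leaving out a library. The cause of these changes was not tested.

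Whether replicate numbers pair the libraries is not in the labels, and correlations between libraries cannot settle it. Deviations of same-numbered libraries correlated at 0.00174, 0.192 and 0.238. WT replicates 2 and 3 each correlated best with their same-numbered library, and WT replicate 1 with E531R replicate 2 (0.177). With the replicate block, 1179 genes were called higher and 1062 lower, and of the members 2 higher and 1, Bcl2, lower (log2 fold change -0.72, limma adjusted p = 0.0374). The block ended the calls of Bid, Bcl2l14 and Foxo4 (limma adjusted p = 0.0579, 0.108 and 0.0834). Depth limits Bcl2a1b, Bcl2a1d and Bok, with 3 to 91 reads per library.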
